A study of Mus musculus with 20 samples.

Results

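The genes described here encode proteins that detect RNA in the cytosol or in endosomes, together with the proteins that carry or limit that signal. The 8 genes, chosen by name for this role out of 15956 genes listed in the counts, were Ddx58 (also called Rigi), Ifih1, Dhx58, Mavs, Trim25, Eif2ak2, Adar and Tlr3. They and the lists below were chosen with earlier results of these data known, so shares of all genes beside their counts are descriptive only. All 8 were listed and all 8 passed the filter on low counts. They were measured by QuantSeq, a sequencing assay primed from the poly(A) tail that reads the 3′ end of each transcript, in left ventricle from 20 male mice on 4 diets, 5 mice per diet. The normal protein (NP) diet held normal fat and normal protein, and the low protein (LP) diet held normal fat with casein reduced. The high-fat (HF) diet held high fat and normal protein, and the HF + LP diet held high fat with the same casein reduction. The labels give every mouse an age of 18 months, whereas the study's methods give a younger age at tissue collection, and neither names the strain. The study's text also gives a larger number of mice per diet for this assay than the libraries analysed here. The labels name no transgene or deletion, each library came from 1 mouse, and the mice carry animal numbers in the labels (3, 4, 5, 6 and 8 in NP, then 2, 5, 13, 15 and 20 in LP, and 1 to 5 in both HF and HF + LP).

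Cells tell viral or misplaced RNA from their own by its ends, its length and its base pairing. RIG-I (Ddx58) and MDA5 (Ifih1) are cytosolic helicases that bind such RNA and then assemble with MAVS, an adaptor on the mitochondrial surface, which passes the signal to kinases that switch on type I interferon genes. TLR3 reads double-stranded RNA inside endosomes and signals through another adaptor, TRIF, while PKR (Eif2ak2) binds double-stranded RNA and shuts down translation and ADAR1 (Adar) edits it so that it is no longer recognized. Several of these genes are themselves induced by interferon, and in the heart they are expressed by cardiomyocytes as well as by resident immune and stromal cells.

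Library totals ran from 12559607 to 23331907 counts. Reads of mitochondrially encoded genes took from 35.4% to 47.2% of a library, and lay between 38.1% and 39.8% in the 5 HF mice and between 41.3% and 47.1% in the 5 NP mice. All 8 cardiomyocyte markers were listed in every diet group with none at 0 throughout. The LP mouse numbered 13 stood apart, with a median correlation of 0.908 with the other LP mice, and had the highest sums of atrial (240300) and adipocyte (4355) markers of all 20 mice, in normalized counts, which are counts scaled to 1 common library size. LP mouse 20 had the highest sums of T and NK cell (2831) and B cell (2732) markers, where T and NK cell markers reached at most 84.6 in the mice of the other diets. Atrial markers also differed within the HF group, at 199900 and 72050 in HF mice 1 and 3 against 2185, 3156 and 1834 in HF mice 2, 4 and 5. Values below are normalized counts and are listed by rising animal number.

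Short DNA motifs bound by interferon-regulated transcription factors are known from the start sites of interferon-induced genes, so the start sites of the RNA sensing genes are shown before their values. RefSeq promoter windows (build GRCm38.p6, 250 bases before to 50 after the start) were matched for 7 of the 8 genes, all except Dhx58. The core of the interferon-stimulated response element, GAAANNGAAA, was searched on both strands. It was found in 3 of the 7 genes, Ddx58, Ifih1 and Eif2ak2, against 3.99% of all 27025 genes with a window, any window of a gene counting. The shorter form GAAANNGAA, which every match to the longer motif also contains, was found in 5 of the 7, adding Adar and Trim25, against 9.76% of all genes. Neither form was in the windows of Mavs or Tlr3, which says only that these letters are not there. The 30 bases around the match nearest to each start are given below in the direction of transcription, with the matched letters in capitals.
Ddx58: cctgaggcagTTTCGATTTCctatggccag
Ifih1: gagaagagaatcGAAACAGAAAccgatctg
Eif2ak2: tccgccggGAAAACGAAACAGAAgagaacc
Adar: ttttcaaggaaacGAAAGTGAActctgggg
Trim25: cgcccctcctgTTCAGTTTCgattccttcc
The Ddx58 stretch (chr4:40239804-40239833, minus strand) and the Trim25 stretch (chr11:88999383-88999412, plus strand) held the motif on the strand opposite to transcription. The Ifih1 (chr2:62646206-62646235, minus strand), Eif2ak2 (chr17:78882533-78882562, minus strand) and Adar (chr3:89730738-89730767, plus strand) stretches held it in the direction of transcription. In Eif2ak2 a match to each form overlapped, and the Adar match lay in the last of its 3 windows. The matches of Ddx58, Ifih1, Eif2ak2 and Adar began 2, 32, 18 and 33 bases after the start, and that of Trim25 ended 1 base before it.

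HF against NP asks what a high-fat diet does at normal protein, and HF + LP against HF asks what lowering protein does on top of high fat. All of the RNA sensing genes other than the adaptor Mavs, whose log2 fold change was -0.26, were higher in HF than in NP. In edgeR's quasi-likelihood test over 13991 genes, 7 of the 8 were higher in HF at an unadjusted p under 0.05, where 5.17% of all genes were. This count of 7 became 4 without NP mouse 3, HF mouse 4 or HF mouse 5, and 3 with the animal number as a block. That block fit held only the 3 mice per diet that share a number, and the block over all 20 libraries also gave 3. By exact permutation 5 of the 8 were higher. None of the 8 was called by edgeR at the study's rule (Benjamini-Hochberg adjusted p below 0.01 with a base mean, the mean normalized count over all mice, above 50), which 0.264% of all genes passed, whereas DESeq2, which called 1.17% of all genes (163), called Ddx58 (adjusted p = 0.00117). None had HF values entirely above the NP values, as 2.07% of all genes did. Compared to HF, 6 of the 8 were lower in HF + LP at an unadjusted p under 0.05, where 2.43% of all genes were, and none of the 8 was called, as for all genes (0% called by edgeR, while DESeq2 called 16 genes or 0.114%, none of them among the 8). The median log2 difference over the 8 genes was 0.48 for HF against NP and -0.63 for HF + LP against HF, whereas over all genes tested it was -0.001 and 0.02. Both comparisons share the HF mice, so their values are given side by side and are not independent. The 3 HF mice with the highest values of most of these genes, 2, 4 and 5, were those with low atrial markers in that group. In bulk tissue, fewer cells of a type and less RNA per cell cannot be told apart.

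**Figure D1:**
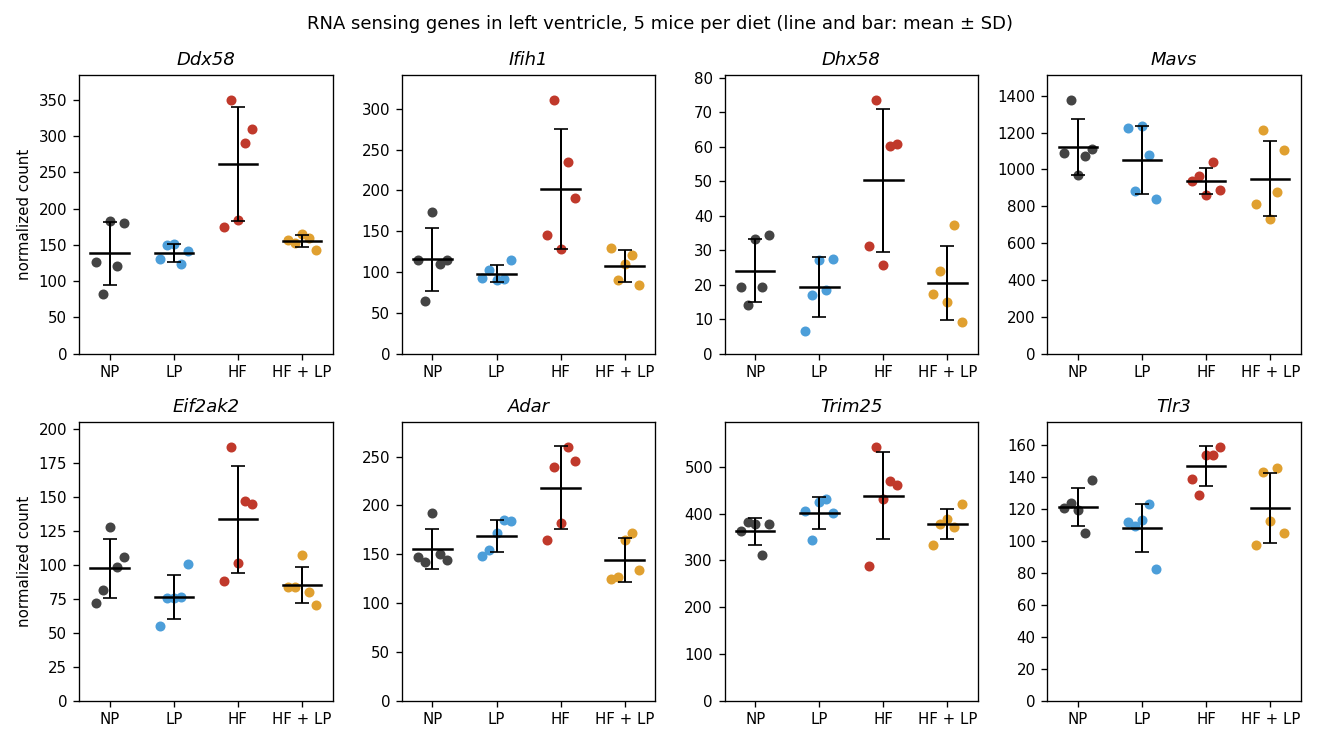
Normalized counts (vertical axis, from 0) of the 8 RNA sensing genes in each mouse, by diet. Points are mice, and line and bar are mean ± SD (n = 5). In the HF group 3 mice sit well above the other diets for Ddx58, Dhx58 and Adar, and 2 HF mice sit close to them.

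Ddx58 encodes RIG-I, which recognizes short double-stranded RNA with a triphosphate end. The gene (ENSMUSG00000040296) lies on chromosome 4 at 40203773-40239828, minus strand. Its normalized counts were 126, 81.7, 183, 120.3 and 180.2 in NP, 130.1, 150.4, 151, 123 and 141 in LP, 174, 349, 184, 291 and 309.7 in HF, and 157, 152, 166, 159 and 143 in HF + LP. HF mice 2, 4 and 5 were above every mouse of the other diets, and HF mouse 3 was above every NP mouse by a narrow margin. Every HF + LP mouse was below every HF mouse, and Ddx58 was the 1 gene of the 8 whose HF and HF + LP values did not overlap, a pattern that 0.636% of all genes shared with the lower values in HF + LP. The mean was 138 ± 43.2 in NP and 262 ± 78.2 in HF (SD, n = 5). HF exceeded NP by a log2 fold change of 0.92 ± 0.20 (SE), or 1.89-fold, with an adjusted p of 0.0235 by edgeR's test, which passes 0.05 and misses the rule of 0.01. With DESeq2, the tool the study used, Ddx58 did pass that rule, as did 1.17% of all genes, and over all alternatives its adjusted p ran from 0.00117 to 0.324. HF + LP was lower than HF by -0.75 ± 0.20 (log2, SE, edgeR adjusted p = 0.287, and from 0.0561 to 0.740 over the alternatives). A two-sided exact permutation test of log2 CPM gave p = 0.00794 for HF + LP against HF, the smallest that 5 mice against 5 can give, and p = 0.0317 for HF against NP. The spread also differed between diets, with a coefficient of variation of 31.2% in NP and 29.9% in HF against 8.90% in LP and 5.32% in HF + LP.

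Ifih1 encodes MDA5, which binds long double-stranded RNA. This gene (ENSMUSG00000026896, chromosome 2, 62595798-62646255, minus strand) gave 115, 64.2, 173, 110.2 and 115 normalized counts in NP, 92.3, 102, 90.4, 91.2 and 114 in LP, 145, 310.5, 128, 235 and 190.5 in HF, and 129, 89.8, 109.7, 122 and 84.7 in HF + LP. HF mice 2, 4 and 5 again lay above all other mice, whereas HF mice 1 and 3 lay below the highest NP mouse, and HF mouse 3 lay just below the highest HF + LP mouse. Compared to NP, HF was higher by a log2 fold change of 0.80 ± 0.23 (SE, 1.75-fold, edgeR adjusted p = 0.0884, and from 0.0272 to 0.522 over the alternatives). HF + LP was lower than HF by -0.91 ± 0.23 (log2, SE, edgeR adjusted p = 0.252, and from 0.0349 to 0.724 over the alternatives). The LP mean of 98.1 ± 10.3 and the HF + LP mean of 107 ± 19.4 were the lowest, and neither differed from the NP mean of 115 ± 38.7 (SD, n = 5) by more than the spread in NP.

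Dhx58 encodes LGP2, a helicase of the same family that lacks the signaling domains of the other members and tunes their activity. It is the most sparsely counted of the 8 (ENSMUSG00000017830, chromosome 11, 100694884-100704271, minus strand), with 5 to 81 reads in a library. Its mean normalized count of 28.5 is under the minimum of 50, so it could not be called. Normalized counts were 19.4, 14.0, 33.3, 19.4 and 34.3 in NP, 6.50, 17.1, 27.1, 18.5 and 27.4 in LP, 31.1, 73.4, 25.6, 60.2 and 60.8 in HF, and 17.3, 24.0, 14.9, 37.2 and 9.07 in HF + LP. The high values again belonged to HF mice 2, 4 and 5, and the remaining HF mice lay within the range of the other diets. HF exceeded NP by a log2 fold change of 1.06 ± 0.39 (SE, 2.09-fold, edgeR adjusted p = 0.212). HF + LP was lower than HF by -1.29 ± 0.39 (log2, SE, edgeR adjusted p = 0.459), the largest fitted difference of the 8 genes and the one with the largest error. An antisense gene, Dhx58os, overlaps it and is not among the listed genes, and whether counting used the strand is not given in the sources used here.

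Mavs encodes the mitochondrial adaptor on which RIG-I and MDA5 converge. The gene (ENSMUSG00000037523, chromosome 2, 131234063-131248025, plus strand) was read deeply, with 747 to 2006 reads in a library. NP mice held 1087, 1376, 972, 1071 and 1111 normalized counts, and LP mice held 1227, 884, 1234, 1076 and 841. HF mice held 938, 962, 861, 1038 and 889.5, and HF + LP mice held 815, 1215, 733, 878 and 1108. The HF mice were not high for the adaptor: 4 of the 5 lay below every NP mouse. HF differed from NP by a log2 fold change of -0.26 ± 0.14 (SE, edgeR unadjusted p = 0.0810, adjusted p = 0.471), with a 95% interval from -0.56 to 0.04. The exact permutation test gave p = 0.0159 for the same difference, and fitting only these 2 groups also placed it at an unadjusted p under 0.05. HF + LP and HF differed by 0.02 (log2, 95% interval -0.28 to 0.31), and this value changed sign under 3 alternatives that kept all mice and in 4 of the 20 fits without 1 mouse.

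Trim25 encodes a ubiquitin ligase that adds ubiquitin chains to RIG-I and favours its activation. The gene (ENSMUSG00000000275) lies on chromosome 11 at 88999376-89020293, plus strand. Its normalized counts were 364, 382, 377, 312 and 377 in NP, 406, 343, 426, 431 and 401 in LP, 287, 542, 432, 469.7 and 461 in HF, and 332, 378, 388, 371 and 420.4 in HF + LP. HF mice 2 to 5 lay above every NP mouse, but HF mouse 1 was the lowest of all 20. HF exceeded NP by a log2 fold change of 0.28 ± 0.13 (SE, 1.21-fold, edgeR unadjusted p = 0.0424, adjusted p = 0.360), and the exact permutation test gave p = 0.190. HF + LP differed from HF by -0.22 ± 0.13 (log2, SE, edgeR unadjusted p = 0.107), with a 95% interval from -0.48 to 0.05. The difference from NP was no longer at an unadjusted p under 0.05 in 8 of the 20 fits that left out 1 mouse.

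Eif2ak2 encodes PKR, a kinase that is activated by double-stranded RNA and phosphorylates the initiation factor eIF2. The gene (ENSMUSG00000024079, chromosome 17, 78852564-78882573, minus strand) gave 72.1, 81.7, 128, 98.4 and 106 normalized counts in NP, 54.6, 75.2, 75.6, 76.4 and 100.3 in LP, 88.2, 187, 102, 147 and 145 in HF, and 83.5, 83.6, 107, 79.9 and 70.6 in HF + LP. HF mice 2, 4 and 5 were above all mice of the other diets, and HF mice 1 and 3 were inside the NP range. The HF mean exceeded that of NP by a log2 fold change of 0.46 ± 0.20 (SE, 1.38-fold, edgeR adjusted p = 0.326). This difference passed an unadjusted p of 0.05 in 15 of the 20 fits without 1 mouse, and it was lost without HF mouse 2, 4 or 5 or NP mouse 3 or 4. The exact permutation test gave p = 0.119. HF + LP was lower than HF by -0.65 ± 0.20 (log2, SE, edgeR adjusted p = 0.473), and 4 of the 5 HF + LP mice lay below every HF mouse. The RNA genes n-R5s29 and Gm26637 on the other strand overlap the gene and are not among the listed genes.

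Adar encodes ADAR1, which converts adenosine to inosine in double-stranded RNA and keeps the cell's own RNA from activating MDA5 and PKR. Its position is chromosome 3, 89715022-89753446, plus strand (ENSMUSG00000027951), and it overlaps Chrnb2, a gene on the other strand that is not among the listed genes. Normalized counts were 147, 142, 192, 151 and 144 in NP, 148, 154, 172, 185 and 184 in LP, 164, 239.6, 182, 259.8 and 245 in HF, and 124, 126, 165, 172 and 134 in HF + LP. HF mice 2, 4 and 5 were above every other mouse, and 3 of the 5 HF + LP mice lay below every HF mouse. HF exceeded NP by a log2 fold change of 0.49 ± 0.14 (SE, 1.41-fold, edgeR adjusted p = 0.0839, and from 0.0210 to 0.407 over the alternatives). HF + LP was lower than HF by -0.60 ± 0.14 (log2, SE, edgeR adjusted p = 0.217, and from 0.0125 to 0.686 over the alternatives). The smallest unadjusted p of the 8 genes in this comparison, 3.7e-04, was that of Adar.

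Tlr3 encodes the endosomal receptor for double-stranded RNA. The gene (ENSMUSG00000031639, chromosome 8, 45395665-45411080, minus strand, overlapped by the unlisted antisense gene Gm45542) gave 120.5, 124, 119, 105 and 138 normalized counts in NP, 112, 109, 113, 123 and 82.8 in LP, 139, 129, 154, 154 and 159 in HF, and 97.8, 143, 112, 146 and 105 in HF + LP. The high HF mice were not the same here: HF mouse 2, the highest for Ddx58, Ifih1, Dhx58, Eif2ak2 and Trim25, was the lowest HF mouse for Tlr3. HF exceeded NP by a log2 fold change of 0.28 ± 0.13 (SE, 1.21-fold, edgeR unadjusted p = 0.0479, adjusted p = 0.376). HF + LP was lower than HF by -0.29 ± 0.13 (log2, SE, edgeR unadjusted p = 0.0428, adjusted p = 0.992). Both differences lost an unadjusted p under 0.05 in some fits without 1 mouse, in 10 of 20 for HF against NP and in 6 of 20 for HF + LP against HF. The exact permutation test gave p = 0.0159 for the first and p = 0.0714 for the second.

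Lowering protein at normal fat asks whether the LP diet alone moves these genes. In LP compared to NP, none of the 8 was at an unadjusted p under 0.05 in edgeR's test, where 7.23% of all genes were in either direction, and none was called, as for all genes (0% by edgeR, 4 genes by DESeq2). The fitted log2 differences ran from -0.34 for Eif2ak2 (95% interval -0.76 to 0.09) to 0.15 for Trim25 (95% interval -0.12 to 0.41). The widest interval was that of Dhx58, from -1.11 to 0.56. With the animal number as a block over all 20 libraries, Dhx58 moved from -0.27 to -1.11 and Eif2ak2 from -0.34 to -0.66, neither at an unadjusted p under 0.05. For Trim25, 4 of the 5 LP mice lay above every NP mouse, and the exact permutation test gave p = 0.0952.

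In HF + LP compared to LP, which asks what high fat does at low protein, again none of the 8 was at an unadjusted p under 0.05 although 15.9% of all genes were, and none was called, where 0.1% of all genes were. Log2 differences ran from -0.23 for Adar (95% interval -0.52 to 0.07) to 0.16 for Tlr3 (95% interval -0.12 to 0.44). With the same block, Dhx58 moved from 0.04 to 1.00 and Eif2ak2 from 0.14 to 0.60, again neither at an unadjusted p under 0.05. For Ddx58 the difference was 0.16 (95% interval -0.26 to 0.57), 4 of the 5 HF + LP mice lay above every LP mouse, and the exact permutation test gave p = 0.0476.

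Whether the effect of low protein differed between high and normal fat was tested with an interaction term. Adar had a value of -0.72 ± 0.20 (log2, SE, edgeR unadjusted p = 0.00167, adjusted p = 0.614) and Ddx58 a value of -0.77 ± 0.28 (log2, SE, edgeR unadjusted p = 0.0134, adjusted p = 0.668). These were 2 of the 8 genes with a lower value at an unadjusted p under 0.05, where 4.31% of all genes were, and both were there in each of the 20 fits without 1 mouse. The count was 4 under RLE scaling, a floor of 10 counts in every library, scaling without mitochondrial genes, the library name number as a covariate and DESeq2, and without HF mouse 1, HF mouse 3 or HF + LP mouse 4, and it was 0 with the animal number as a block over all 20 libraries. Ifih1 at -0.68 and Trim25 at -0.36 lay close to that threshold, with unadjusted p-values of 0.0515 and 0.0577 in edgeR's test. Mavs was the 1 gene with a positive value, 0.11. No gene passed the calling rule for this term (0% of all genes by edgeR, 1 gene by DESeq2).

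**Figure D2:**
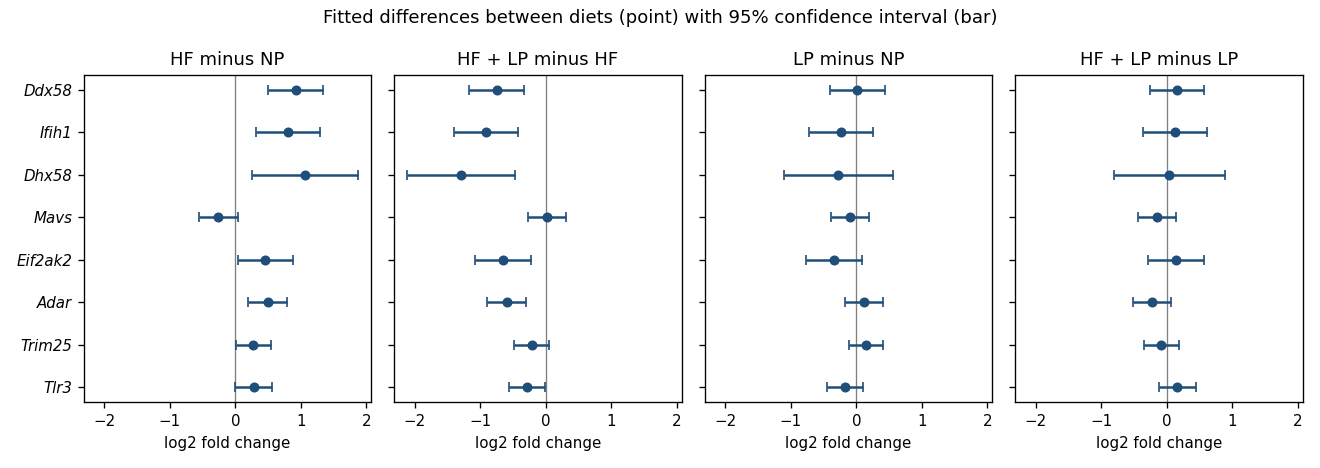
Fitted log2 fold change (horizontal axis) of each RNA sensing gene in 4 comparisons, with points for the estimate and bars for the 95% confidence interval. The 7 intervals above 0 in HF minus NP and the 6 below 0 in HF + LP minus HF contrast with LP minus NP and HF + LP minus LP, where each interval includes 0.

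Several of the genes varied together from mouse to mouse. Over the 20 libraries, Pearson's r of log2 CPM between Ddx58 and Ifih1 was 0.91 (Spearman's rho 0.77). Without HF mice 2 and 5, the farthest from the median Ddx58 level, it was 0.85. After the mean of each diet was removed it was also 0.85, and over the 15 mice without HF it was 0.72. Among Ddx58, Ifih1, Dhx58, Eif2ak2 and Adar, every pair had r between 0.75 and 0.91 over all mice. Over the 15 mice without HF these pairs ran from 0.16, for Adar with Ddx58, to 0.72. Mavs had r between -0.43 and 0.10 with the other 7 genes. Tlr3 had r between 0.27 and 0.55 with the 6 genes other than Mavs, and after the diet means were removed it lay between -0.24 and 0.20. All points of a correlation share the library and its depth, and the 20 mice are not 1 homogeneous group, so these values describe the libraries only.

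The genes whose pattern over the mice was most like that of each member were then sought. Among 10099 genes whose base mean exceeded 50, the 3 with the highest r to Ddx58 over 20 libraries were Ifi44, Ifih1 and Rtp4 (r from 0.90 to 0.92). For Ifih1 they were Oasl2, Ifit2 and Trim30a (0.91 to 0.93), and for Dhx58 Parp12, Oasl2 and Ifit3 (0.87 to 0.88). Those of Eif2ak2 were Gbp3, Rtp4 and Bst2 (0.88 to 0.92), and those of Adar were Oasl2, Irf9 and Stat2 (0.85 to 0.87). Nearly all of these are known as interferon-induced genes or, for Irf9 and Stat2, as parts of the factor that acts downstream of the interferon receptor. Trim25 was closest to Samhd1, Znfx1 and Sp100 (0.71 to 0.77). Tlr3 and Mavs had other neighbours. Tlr3 was closest to Pla1a, Msantd3 and Smoc2 (0.82 to 0.86), and Mavs to Dmwd, Babam2 and Mtor (0.90 to 0.92).

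**Figure D3:**
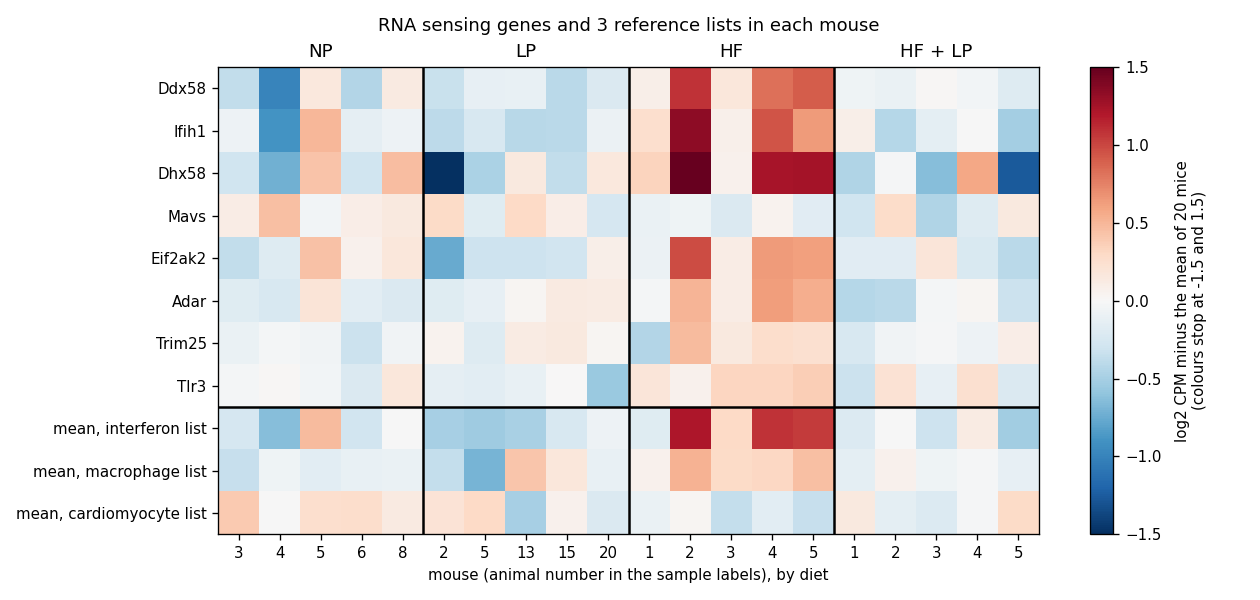
Log2 CPM minus the mean of the 20 mice (colour, stopping at -1.5 and 1.5) for the 8 RNA sensing genes and, below the line, for the mean of the interferon, macrophage and cardiomyocyte lists. Columns are mice by diet. HF mice 2, 4 and 5 are red for most sensors and for the interferon list, where they score 1.21, 1.09 and 1.05, while HF mouse 1 scores -0.18.

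A reference list of 20 interferon signal transduction and interferon-induced genes, none of them among the 8, was read in the same mice. In HF compared to NP, 15 of the 20 were higher and 0 lower at an unadjusted p under 0.05, with a median log2 difference of 1.12, beside 5.17% of all genes higher. Compared to HF, 16 of the 20 were lower and 0 higher in HF + LP, with a median of -1.10, beside 2.43% of all genes lower. Examples were Rtp4, a chaperone of membrane receptors, at 622 ± 274 normalized counts in HF, 263 ± 79.1 in NP and 253 ± 54.0 in HF + LP (SD, n = 5), and Irf9, at 578 ± 202, 328 ± 65.4 and 301 ± 35.8. Neither was called by edgeR with all mice kept, Rtp4 was called in HF against NP without HF mouse 1 (log2 fold change 1.44, edgeR adjusted p = 0.00357), and DESeq2, with its 163 and 16 genes called, called both in each comparison (adjusted p from 0.000784 to 0.00692). The mean centred log2 CPM of the list was 1.21, 1.09 and 1.05 in HF mice 2, 4 and 5, 0.30 in HF mouse 3 and -0.18 in HF mouse 1, and at most 0.47 in the mice of the other diets. Its Pearson's r with the RNA sensing genes over 20 libraries was 0.90 for Ddx58, 0.91 for Ifih1, 0.87 for Dhx58, 0.88 for Eif2ak2 and 0.82 for Adar. It was lower for Trim25 (0.59) and Tlr3 (0.56), and negative for Mavs (-0.29). Over the 15 mice without HF it was 0.61 for Ddx58, 0.79 for Ifih1, 0.74 for Dhx58 and 0.65 for Eif2ak2, but 0.36 for Adar and -0.13 for Trim25.

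Of 20 listed adaptors, kinases and transcription factors below MAVS and TRIF, 19 were tested, 1 was higher in HF than in NP and 1 was lower in HF + LP than in HF at an unadjusted p under 0.05, and both were Irf7, the interferon-inducible factor that amplifies type I interferon genes. Irf7 had 918 ± 546 normalized counts in HF, 250 ± 159 in NP and 193 ± 81.5 in HF + LP (SD, n = 5). Its log2 differences were 1.88 (edgeR adjusted p = 0.0397) and -2.25 (edgeR adjusted p = 0.134), and DESeq2 called it in both (adjusted p = 0.00162 and 0.000468), where it called 163 and 16 of all 13991 genes. The share of all genes at an unadjusted p under 0.05 in edgeR's test was 5.17% higher and 2.43% lower in these comparisons, so 1 of 19 is near it. The median over the 19 genes was 0.08 in the first comparison and -0.03 in the second.

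Among 20 regulators of RIG-I-like receptors, 2 were higher and 1 lower in HF than in NP at an unadjusted p under 0.05. The higher ones were Zc3hav1, the zinc-finger antiviral protein that binds CpG-rich RNA (log2 difference 0.48), and Ddx60, a helicase linked to RIG-I (0.72). The lower one was Nlrx1 (-0.44), a mitochondrial protein reported to restrain MAVS. In HF + LP compared to HF, Nlrc5 (-0.90) and Ddx60 (-0.91) were lower and none was higher. These counts stand beside 5.17% of all genes higher and 7.91% lower in the first comparison and 2.43% lower in the second, and no gene named here passed after adjustment over all genes (edgeR adjusted p from 0.232 to 0.676). The median of the 20 was 0.15 and 0.08 in these comparisons.

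Of 16 genes of endosomal RNA sensing besides Tlr3, 15 were tested. In HF compared to NP, 4 were higher and 0 lower at an unadjusted p under 0.05: Pld4, a nuclease of endolysosomes (0.64), the receptors Tlr13 (0.94) and Tlr7 (0.58), and Irf5, a factor activated by these receptors (0.62). In HF + LP compared to HF, Pld4 was lower (-0.43) and 0 were higher. None of these passed after adjustment (edgeR adjusted p from 0.137 to 0.9995). The median was 0.17 and -0.11, and the shares of all genes were again 5.17% higher and 2.43% lower. Of 19 other genes that bind double-stranded RNA or act in the PKR pathway, 2 were higher in HF than in NP and 3 were lower in HF + LP than in HF at an unadjusted p under 0.05, and none passed after adjustment. Zbp1, a sensor of Z-form nucleic acid that ADAR1 restrains, had log2 differences of 1.49 and -2.09 (edgeR adjusted p = 0.0962 and 0.172). Mlkl, the executor of necroptosis, had 0.99 and -0.77 (edgeR adjusted p = 0.104 and 0.714). Both had a base mean under 50 (42.8 and 21.8) and could not be called. Samhd1, a nucleotide hydrolase, had -0.27 in HF + LP against HF (edgeR adjusted p = 0.912). The remaining 16 genes of that list were at an unadjusted p of 0.05 or above in both comparisons, and its medians were 0.06 and -0.08.

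**Figure D4:**
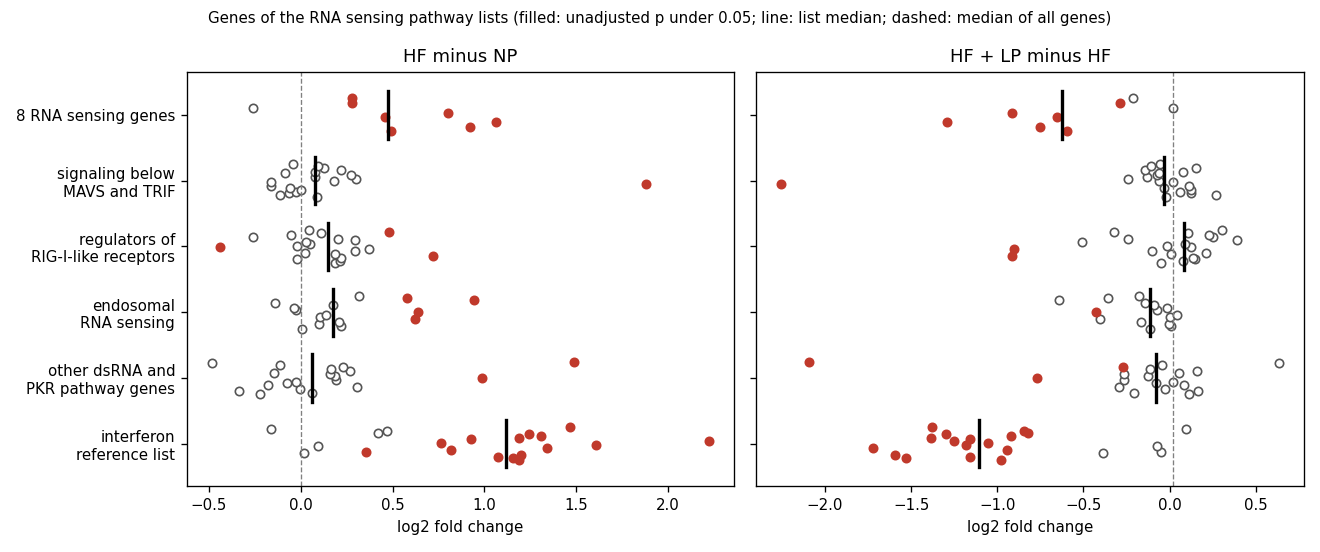
Log2 fold change (horizontal axis) of every tested gene of 6 lists in HF minus NP and HF + LP minus HF. Filled points have an unadjusted p under 0.05, black lines are list medians and the dashed line is the median of all genes. The RNA sensing genes (medians 0.48 and -0.63) lie between the interferon reference list (1.12 and -1.10) and the signaling genes below MAVS and TRIF (0.08 and -0.03).

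Markers of macrophages and monocytes were also read in these libraries. Of 11 markers, 7 were higher in HF than in NP at an unadjusted p under 0.05, with a median log2 difference of 0.50, beside 5.17% of all genes. In HF + LP 2 of them were lower than in HF at an unadjusted p under 0.05, beside 2.43% of all genes. The median log2 difference of the 11 markers there was -0.36, and 10 of them were below 0. Their summed normalized count ranged from 7504 to 9878 in HF, from 5692 to 7519 in NP and from 5743 to 7888 in HF + LP, and no marker was at 0 throughout a group. HF mice 1 and 3, which were not high for Ifih1 or Eif2ak2, held 7504 and 8782, whereas HF mice 2, 4 and 5 held 9878, 8803 and 9289. Pearson's r of the mean marker level with the RNA sensing genes ran from 0.01 for Mavs to 0.66 for Dhx58 over 20 libraries. After the diet means were removed it ran from 0.04 for Ifih1 and 0.17 for Ddx58 through 0.37 for Eif2ak2, 0.40 for Adar and 0.45 for Dhx58 to 0.55 for Trim25. The interferon list gave 0.82 for Ddx58, 0.80 for Ifih1 and 0.60 for Trim25 in the same way. For Tlr3 it gave 0.12 against 0.19 with the macrophage markers, and for Mavs -0.18 against 0.34. Cardiomyocyte markers went the other way, with 4 of 8 lower in HF than in NP at an unadjusted p under 0.05 and a median of -0.24, beside 7.91% of all genes lower. The fit scaled without mitochondrially encoded genes left the same RNA sensing genes at an unadjusted p under 0.05 in HF against NP and in HF + LP against HF. Beyond that scaling, the part of these markers, and of the lower mitochondrial share in HF, in the differences of the RNA sensing genes was not tested.

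The 4 atrial markers, Myl7, Sln, Nppa and Myl4, varied widely within every diet. Their summed normalized count ranged from 2369 to 59060 in NP, from 2149 to 240300 in LP, from 1834 to 199900 in HF and from 948.7 to 85180 in HF + LP. All 4 were higher in HF than in NP, with a median log2 difference of 1.31, and all 4 were lower in HF + LP than in HF, with a median of -1.36. With this wide spread, none of the 4 was at an unadjusted p under 0.05 in either comparison. Adipocyte markers summed to 1042 in HF mouse 3 and to between 6.88 and 39.8 in the other HF mice. HF mice 1 and 3 thus differed from HF mice 2, 4 and 5 in atrial markers, given above, as well as in most RNA sensing genes. Pearson's r of the mean atrial marker level with the RNA sensing genes lay between -0.28, for Ddx58, and 0.04 over 20 libraries. Over the 15 mice without HF it was 0.75 for Adar, 0.47 for Trim25, 0.40 for Eif2ak2 and 0.38 for Dhx58, and between 0.03 and 0.12 for the other 4 genes. A fit with that level as a covariate was chosen after seeing the data. It used 1 slope for all diets, whereas r differed between all 20 libraries and the 15 mice without HF. It therefore cannot show the part of atrial tissue. In that fit Trim25 in HF against NP and Tlr3 in HF + LP against HF were no longer at an unadjusted p under 0.05. Their log2 differences were 0.28 and -0.29 without the covariate and 0.26 and -0.28 with it. With the covariate, Ddx58 exceeded its NP level by a log2 fold change of 0.86 (edgeR adjusted p = 0.0390), Ifih1 by 0.74 and Adar by 0.50. The part of the atrial and of the adipocyte markers was not tested.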

How the data were processed

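RNA from left ventricle of 20 mice was made into 3′ QuantSeq libraries. Per the study's methods the authors aligned reads with BlueBee software and tested genes with DESeq2; the submitters' processing notes name DESeq2 version 1.22.2 and build GRCm38. The deposited values used here are raw counts of reads per gene made by the authors, with no normalization. Groups came from the sample titles, and replicates were separate animals. Counts were scaled by TMM and tested with edgeR 4.0.16 (R 4.3.3) by quasi-likelihood F tests, with 1 coefficient per diet in all 20 libraries, after edgeR's filter on low counts kept 13991 genes; p-values were adjusted over all of these by Benjamini-Hochberg. The study's calling rule was kept (adjusted p below 0.01 with a base mean, the mean normalized count, above 50). Single genes were also compared by two-sided exact permutation of log2 CPM (prior count 2). The fit was tested on simulated counts. The members and lists were chosen with earlier results of these data known. Named genes were the 8 members; up to 5 genes per list with the smallest unadjusted p, under 0.05, in HF against NP and in HF + LP against HF; and the 3 genes most correlated with each member. Lists cover signaling below MAVS and TRIF, RIG-I-like receptor regulators, endosomal RNA sensing, other double-stranded RNA genes, interferon genes and cell type markers. Symbols, positions and overlaps came from GENCODE for GRCm38, and 15917 of 15956 gene identifiers matched a symbol. Depth, from 12559607 to 23331907 counts per library, limits Dhx58 most. Alternatives were RLE scaling, DESeq2 1.42.0, other filters, scaling without mitochondrial genes, the library name number as a covariate, 2 groups only, the animal number as a block, other thresholds and leaving out each mouse. The block over all 20 libraries and the atrial marker level as a covariate were added after seeing the data.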

Additional observations from a re-analysis of the deposited data

Results flagged for a closer look

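Among 32 sets of 5 mice (8 genes in 4 diets), 2 held a mouse far from the others by Dixon's criterion, whose critical ratio is 0.71. Chance gives about 1 in 20 such sets. For Adar in NP, mouse 5 was the highest at 192.3 normalized counts and the nearest mouse held 150.6. For Trim25 in NP, mouse 6 was the lowest at 312.1 normalized counts and the nearest held 363.7. The interaction value, the effect of low protein at high fat minus that at normal fat, was -0.7663 (log2) for Ddx58 and -0.7192 for Adar. Each was at an unadjusted p under 0.05 in edgeR's test, and neither passed after adjustment over all genes (adjusted p = 0.668 and 0.614). With the animal number as a block over all 20 libraries, neither was at an unadjusted p under 0.05.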

How the results depend on the processing

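In HF against NP, genes called numbered 37, and 61 with only the 2 groups, 163 by DESeq2, 157 at an adjusted p under 0.05 and 20 to 69 without 1 mouse (20 without NP 6 or HF 4, 22 without NP 8, 23 without NP 5, 69 without LP 13). The 7 members higher there became 4 to 7 without 1 mouse (4 without NP 3, HF 4 or HF 5); Ddx58, Ifih1, Dhx58 and Adar stayed under 0.05 in all 20 such fits. By DESeq2, Ddx58 (0.94), Irf7, Rtp4, Rsad2, Cmpk2 and Irf9 passed the calling rule, and in HF + LP against HF so did Irf7, Rtp4, Irf9 and Isg15. Rtp4 also passed in HF against NP by edgeR without HF 1 (1.44). In HF + LP against HF, genes called were 0 by edgeR, 16 by DESeq2 and 0 to 1 without 1 mouse (1 without HF 1), and members lower were 5 to 7. In LP against NP, DESeq2 called 4 genes, no fit without 1 mouse called any (0), and members numbered 0 to 1 (Eif2ak2, without LP 20). In HF + LP against LP, genes called were 14, and 5 with the library name number or the atrial level, 0 with only the 2 groups, 84 by DESeq2, 45 at an adjusted p under 0.05 and 1 to 16 without 1 mouse (1 without HF + LP 2 or HF + LP 4); members stayed at 0 without 1 mouse, with 1 under the library name number (Adar, lower) and 1 by exact permutation (Ddx58, higher). For the interaction, members numbered 4 under RLE scaling, at least 10 counts in every library, mitochondrial genes removed, the library name number and DESeq2, and 2 to 4 without 1 mouse (4 without HF 1, HF 3 or HF + LP 4), and genes called were 1 by DESeq2 and 0 without 1 mouse. Signs turned for values near 0. Mavs in HF + LP against HF became -0.0033 under RLE, -0.0034 by DESeq2, and -0.087 to 0.068 without 1 mouse (below 0 without HF 3, HF 5, HF + LP 2 or HF + LP 5). Ddx58 in LP against NP became -0.12 to 0.13 without 1 mouse (below 0 without NP 3, NP 4, NP 6, LP 5 or LP 13). Dhx58 in HF + LP against LP became -0.059 with the library name number and -0.28 to 0.23 without 1 mouse (below 0 without LP 2, LP 5, HF + LP 2 or HF + LP 4). The cause was not tested. A floor of 10 counts in every library removed Dhx58.

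Animal numbers shared between diets belong to different mice. Deviations of same-numbered mice correlated between -0.56 and 0.48, so the numbers were not taken as pairs. As a replicate block in fits of 2 diets they were used only for mice whose number both diets share, and the other mice were left out. In HF against NP, with 3 mice per diet, the block gave 3 members (Ddx58, Dhx58 and Adar) and 0 genes called. In HF + LP against LP, with only 2 mice per diet, it gave 26 genes called. There it turned signs to -0.17 for Ifih1, 0.14 for Mavs and 0.086 for Trim25. In HF + LP against HF, with all 5 mice per diet, Mavs turned to -0.0059. LP and NP share 1 number, so no fit of those 2 groups alone was made with the block. A block over all 20 libraries, added after seeing the data, gave 3 members (the same 3) and 2 genes called in HF against NP, 6 members lower in HF + LP against HF, and 0 genes called in the other comparisons. It gave 0 members for the interaction, where Eif2ak2 became 0.056, and turned LP against NP to -0.072 for Ddx58, -0.067 for Adar and -0.093 for Trim25, and HF + LP against LP to 0.0078 for Adar and 0.16 for Trim25. It moved Dhx58 and Eif2ak2 to -1.11 and -0.66 in LP against NP and to 1.00 and 0.60 in HF + LP against LP, and Dhx58 from -1.02 to -0.13 for the interaction, with no sign change.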
